A study of Mus musculus with 6 samples.

Results

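The genes described here are 10 markers of the cells that lie beneath and around the intestinal epithelium: Lyve1, Pecam1, Esam and Cdh5 of vessels, Thy1, Vim and Pdgfra of mesenchyme, and Acta2, Myh11 and Des of smooth muscle. They were chosen by symbol, through the RefSeq accession that the array gives for each probe, and all 10 were on the array, with 16 of its 56605 probes. Of these 10 genes, 6 gave a usable signal and 4 were not well above background on any array. Among the 6, Lyve1, Thy1 and Acta2 were higher in knockout crypts, Acta2 on 1 of its 3 probes. Pecam1 and Vim did not pass the test, and Esam was well above background on control arrays only. Of the genes that passed, only Lyve1 kept its call whichever control array was left out.

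RNA came from isolated crypts, the epithelial pits that renew the gut lining from stem cells at their base, of mixed-strain mice. The 3 knockout samples were Villin-Cre; Arid1a f/f: both alleles of Arid1a, which codes for a subunit of the BAF chromatin remodeller that binds DNA, carry recombination sites, and the Villin promoter drives Cre in the intestinal epithelium. The 3 control samples were Arid1a f/f, with the same alleles and no Cre. Villin is not active in vessels, fibroblasts or smooth muscle, so Cre is not driven there. Every sample has 1 array of its own, in a single colour. Age and the number of animals behind a sample are not given in the sources used here, so p-values measure only the spread between these samples, which may be technical. The title and description call knockout 2 a knockout and its source name and genotype call it a control, and for control 3 the contradiction runs the other way. Groups here follow title and description. By Xist and Y-linked probes, knockouts 1 and 3 and control 1 had a male pattern and knockout 2 and controls 2 and 3 a female one, so sex is not balanced between the groups.

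Arid1a itself was at log2 2.20, 2.07 and 2.51 on knockout arrays 1 to 3, against 3.71, 3.47 and 4.01 on control arrays 1 to 3, on its single probe. By this measure knockout 2 was like the other knockouts and control 3 like the other controls. Levels are the log2 of the spot's processed signal minus the array's 75th percentile, so 0 is the brightness of the probe at that percentile. As an amount of RNA, a level can be compared between arrays but not between probes. Signals summed over a list therefore weigh each gene by the brightness of its probe and do not measure relative amounts of RNA. Across arrays 41.7% to 54.7% of probes were well above background, as flagged by the extraction software. Controls 1 and 2 and knockouts 1 and 2 shared slide 1, and control 3 and knockout 3 shared slide 2 and a separate scan. Each fold change is the knockout mean minus the control mean on the log2 scale, with its SE (n = 3 in either group), and limma gave p-values that were adjusted over 13499 genes. All 20 genes of an intestinal epithelium list, such as Epcam and Cdh1, were measured, and only the intestinal transcription factor Cdx1 among them passed, as lower (-1.14 ± 0.27), while the median of the 20 was 0.25. The summed signal of these 20 genes, relative to the 75th percentile, ranged from 3319.5 to 4828 on knockout arrays and from 2984 to 3668 on control arrays.

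Crypts sit in a lamina propria of fibroblasts, blood capillaries, a lymphatic vessel in the villus core, thin strands of smooth muscle and many leukocytes. Methods that shake crypts off this tissue leave some of it behind, and marker genes of the stroma are a usual gauge of how much. Endothelial cells are held together by Cdh5 (VE-cadherin), Pecam1 and Esam, and lymphatic endothelium carries the hyaluronan receptor Lyve1. Fibroblasts carry the growth factor receptor Pdgfra and the filament protein Vim. Smooth muscle is built from Acta2 (its actin), Myh11 (its myosin heavy chain) and Des (its intermediate filament).

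For 4 of the 10 members no probe gave a usable signal. Cdh5, Pdgfra, Myh11 and Des were not well above background on any of the 6 arrays, with any of their 8 probes. Including the 2 dim probes of Acta2, the 10 probes that failed had processed signals of 1.80 to 7.45, and log2 levels of -6.83 to -4.80. At that brightness knockout and control arrays have no order. Other endothelial and fibroblast genes were also mostly dark. In the list of 28 other endothelial genes 17 were dark on all arrays by the same flag, among them Kdr, Flt1, Cldn5 and Eng, and 7 were measured. Of 29 other fibroblast and matrix genes, 19 were dark throughout, including the collagens Col1a1 and Col3a1, Dcn and Pdgfrb, and 4 were measured. Of 18 stromal niche signals, which feed growth factors to the crypt, 13 were dark throughout (Rspo1, Rspo3 and Grem1 among them) and 3 were measured. Of those 3, 0 passed in limma and 2 had an unadjusted p under 0.05, with Il33, an alarm cytokine, at 1.47 ± 0.41 (adjusted p = 0.0587), the growth factor Bmp7 at -1.56 (adjusted p = 0.101) and Nrg1 at -0.22, which was also the median. The summed signal of the 18 genes, relative to the 75th percentile, was 8.29 to 11.8 on knockout arrays and 4.57 to 7.43 on control arrays. On knockout arrays most of it was Il33, with log2 levels of 2.68, 3.36 and 3.01, against 0.78, 2.39 and 1.48 on control arrays 1 to 3. The sum is therefore no measure of the 18 genes together. The smooth muscle and pericyte list differed, with 7 of 23 genes dark throughout (Cnn1 and Lmod1 among them) and 12 measured. These are bulk RNA measurements, in which fewer cells of a type and less RNA per cell cannot be told apart.

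**Figure D1:**
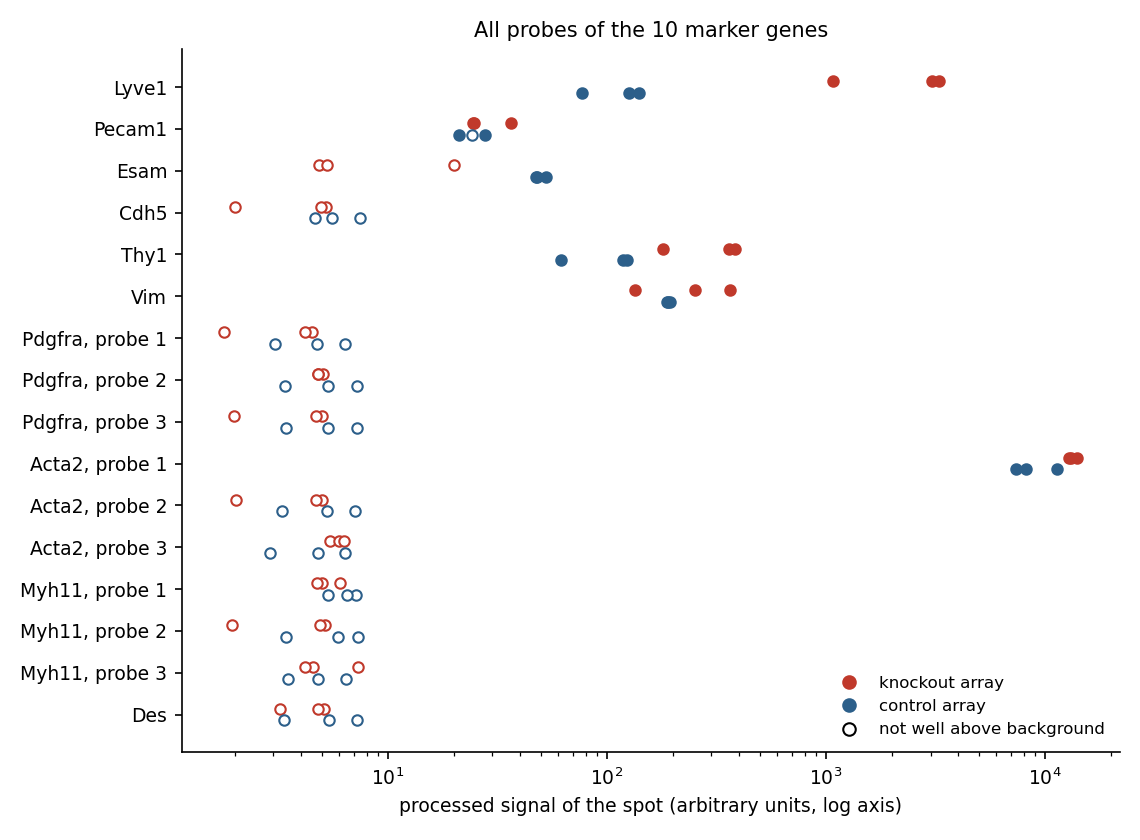
Processed signal (log axis, arbitrary units) of each of the 16 probes of the 10 marker genes, knockout arrays in red above control arrays in blue; open circles are not well above background. The 10 dim probes lie between 1.80 and 7.45 on every array, and Acta2 has 1 bright probe and 2 dim ones.

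Of the 6 members tested, 3 rose and 1 fell, where 7.27% of all genes rose, 7.62% fell and 14.9% passed in either direction. The groups did not overlap for the same 4 genes, as for 39.7% of all genes (19% higher and 20.7% lower in knockout crypts). This count is a description of 6 genes and no more. Esam passed the filter on dim probes only through the control arrays, which favours a difference. The plot of member levels by array shows all 6 genes.

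**Figure D2:**
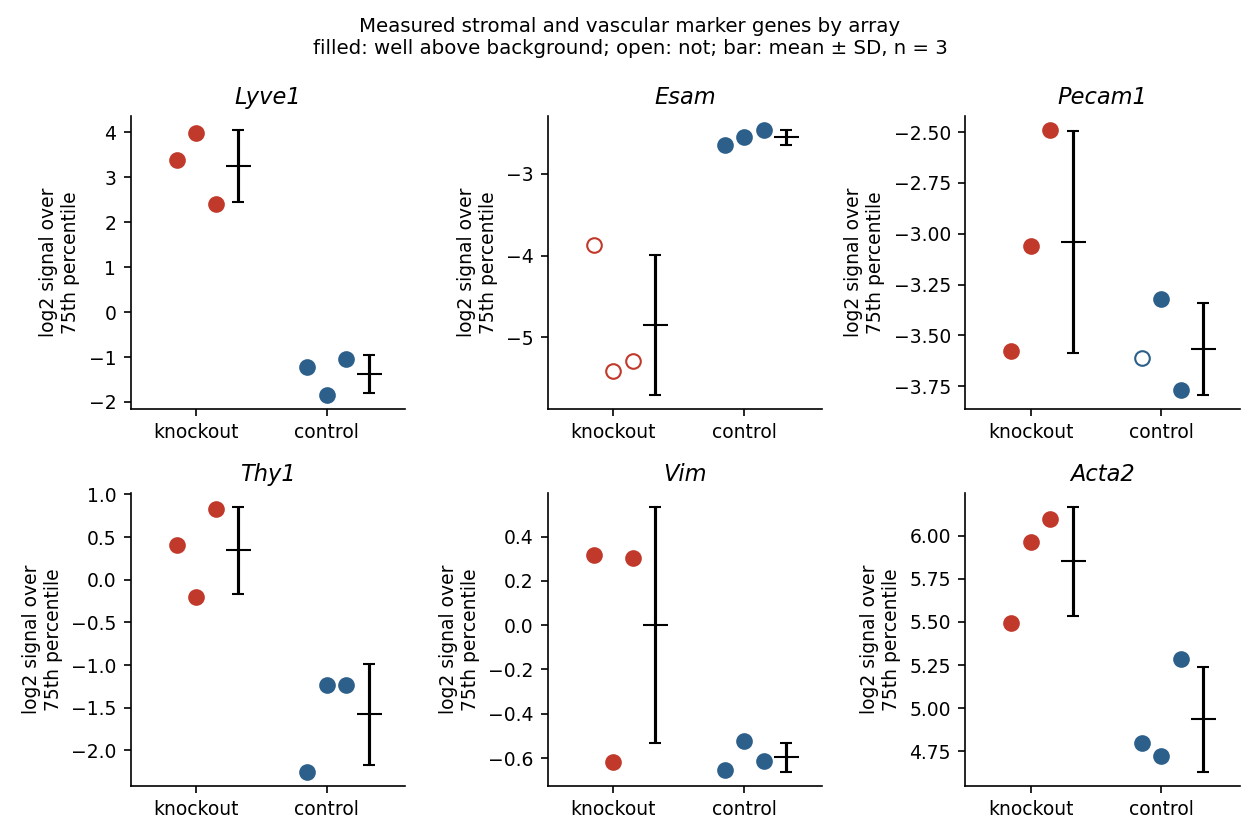
Level of each of the 6 measured marker genes (log2 signal over the array's 75th percentile) on the 3 knockout arrays (left, red) and the 3 control arrays (right, blue), with mean ± SD beside them; open circles are not well above background. The groups are separate for Lyve1, Thy1 and Acta2, with knockout higher, and for Esam, with knockout lower, and they overlap for Pecam1 and Vim.

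Lyve1, the hyaluronan receptor of lymphatic endothelium that some tissue macrophages also carry, had the largest change of the members. Its processed signal was 3032, 3289 and 1082 on knockout arrays 1 to 3, against 125.8, 77.3 and 139.6 on control arrays 1 to 3, and it was well above background on all 6. Its log2 level was 3.38, 3.99 and 2.40 on knockout arrays, against -1.23, -1.85 and -1.05 on control arrays. Every knockout array was several times brighter than every control array, and knockout 3 was the dimmest of its group. Lyve1 rose by 4.64 ± 0.42, a 24.9-fold difference (adjusted p = 0.00173), which was rank 22 of 13499 genes in the upward direction. The difference was 5.23 on slide 1 and 3.46 on slide 2. With either group's arrays left out singly the fold change was 4.27 to 5.06, with adjusted p at most 0.0122. With knockout 2 and control 3 both left out it was 4.43 (adjusted p = 0.0248).

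Other lymphatic genes were mostly dark. Among 6 such genes of the endothelial list, a subset picked out after the values were seen, Flt4, Pdpn, Reln, Ccl21a and Mmrn1 (5 genes) were dark on all arrays. Prox1, the master transcription factor of lymphatic identity, was well above background on 0 of 3 knockout arrays and 2 of 3 control arrays. Over the 7 measured genes of the endothelial list 0 passed in limma in either direction, 1 (Vwf) had an unadjusted p under 0.05, and the median fold change was -0.02, beside -0.01 over all genes. Vwf, the clotting factor carrier of blood endothelium, had a fold change of 1.27 ± 0.42 (adjusted p = 0.0890), and Plvap, of fenestrated capillaries, 1.04 ± 0.45 (adjusted p = 0.154). The tyrosine kinase receptor Tek had -0.02 and Egfl7 0.21. Summed over the 28 genes, the signal relative to the 75th percentile was 1.99 to 3.11 on knockout arrays and 1.81 to 3.97 on control arrays, so the groups overlapped. Tie1, which 2 of 3 knockout arrays and 0 of 3 control arrays measured, did not pass the filter on dim probes.

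Macrophage genes, listed because some macrophages carry Lyve1, went both ways. Of 12 measured members of 18, 3 rose and 2 fell (41.7% called, beside 14.9% of all genes). But Aif1, 1 of the 3 that rose, was kept only through the knockout arrays, which favours a difference. Mrc1, the mannose receptor of tissue macrophages and some endothelium, rose by 1.28 ± 0.19 with 1 of 3 control arrays well above background, and Cd68 rose by 0.87 ± 0.16. Aif1 was well above background on 3 of 3 knockout arrays and 0 of 3 control arrays. By a ratio of group means without an error it was 3.29-fold higher. Lyz2 fell, at -3.43 ± 0.76, and so did the adaptor Tyrobp, at -2.18 ± 0.58. Lyz2 is nearly identical to the Paneth cell lysozyme Lyz1, so its probe may not tell them apart. Adgre1 (F4/80), C1qa, C1qc, Fcgr1 and Spi1 (5 genes) were dark on all arrays. The summed signal of the 18 genes, relative to the 75th percentile, was 113.1 to 207.3 on knockout arrays and 70.9 to 134.9 on control arrays, so the groups overlapped. Most of it came from 1 probe of Itgam, which did not pass (0.69, adjusted p = 0.249). That probe had log2 levels of 6.44, 7.18 and 7.55 on knockout arrays 1 to 3, against 5.69, 6.79 and 6.62 on control arrays 1 to 3. The other Itgam probe was too dim to be kept. The part of macrophages in the Lyve1 difference was not tested.

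Esam, an immunoglobulin-family adhesion molecule of endothelial tight junctions and platelets, was detected in controls only. Its processed signal was 20.0, 4.87 and 5.25 on knockout arrays 1 to 3, against 47.3, 47.8 and 52.7 on control arrays 1 to 3. All 3 control arrays were well above background and close together, and none of the knockout arrays was. By a ratio of group means Esam was 3.09-fold lower in knockout crypts, with no error attached. In that ratio knockout 2 counted at its lowest signal well above background. Knockouts 1 and 3 counted at their own Esam signals, which exceeded the lowest flagged signals there (18.8 and 5.04) without being flagged. Its adjusted p of 0.0157 is no separate support, since the filter on dim probes kept Esam only through the control arrays. In a fit without that filter, over 23462 genes, the adjusted p was 0.0489. The measured means were -4.85 ± 0.86 on knockout arrays and -2.55 ± 0.09 on control arrays (SD, n = 3 each). The difference was -2.04 on slide 1 and -2.82 on slide 2. Esam did not pass without control 1, 2 or 3 (adjusted p = 0.0580, 0.0605 and 0.0617), nor without knockout 2 and control 3 together (-1.98, adjusted p = 0.148). With the normexp background correction, which adds an offset to every spot, the fold change was -0.35 (adjusted p = 0.111).

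Pecam1, the platelet and endothelial adhesion molecule CD31 that many leukocytes also carry, was dim throughout. Its processed signal was 24.4, 24.8 and 36.5 on knockout arrays 1 to 3, against 24.2, 27.9 and 21.2 on control arrays 1 to 3. The groups overlapped, with knockout 3 the brightest array and control 1 not well above background. The fold change of Pecam1 was 0.53 ± 0.30 (adjusted p = 0.247), with 0.15 on slide 1 and 1.28 on slide 2. Of the 4 vascular members, then, only Lyve1 was both measured on every array and past the test.

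Thy1, the surface glycoprotein CD90 of fibroblasts, T cells and neurons, was higher in knockout crypts. Its processed signal was 385.9, 179.9 and 362.2 on knockout arrays 1 to 3, against 61.7, 118.3 and 123.7 on control arrays 1 to 3. The groups did not overlap, knockout 2 being the lowest of its group and control 1 the lowest of all. Thy1 rose by 1.92 ± 0.37, a 3.78-fold difference (adjusted p = 0.0209), with 1.85 on slide 1 and 2.05 on slide 2. Without control 1, 2 or 3 it did not pass, at fold changes of 1.58, 2.09 and 2.09 (adjusted p = 0.0570, 0.0542 and 0.0533). With knockout 2 and control 3 both left out it was at 2.36 (adjusted p = 0.0751).

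Most T cell genes were above their control mean on knockouts 1 and 3 and below it on knockout 2, with 17, 5 and 19 of 20 above it on knockouts 1, 2 and 3. All 20 other genes of the T cell and intraepithelial lymphocyte list were measured, 18 had a positive fold change, 1 rose and 0 fell in limma, and 0 were lower at an unadjusted p under 0.05. That is 5% called, beside 14.9% of all genes. The list's median fold change was 0.69. Cd6, a T cell co-receptor, rose by 2.33 ± 0.61, while Cd5, a related receptor, had 2.62 ± 0.90 (adjusted p = 0.0961) and the T cell receptor chains Cd3e and Cd3g had 0.12 and -0.01. The mean deviation of the 20 genes from the control mean was 1.13, -0.29 and 1.11 on knockout arrays 1 to 3, against -0.91, 0.49 and 0.42 on control arrays 1 to 3. Thy1 deviated by 1.98, 1.38 and 2.40 on knockout arrays, against -0.68, 0.34 and 0.35 on control arrays. On the log2 scale, the deviation of Thy1 minus that of the list was 0.85, 1.67 and 1.29 on knockout arrays, against 0.23, -0.15 and -0.08 on control arrays. Cd6 was the 1 T cell gene that passed. Its deviation minus that of the list was 1.95, 1.31 and 1.77 on knockout arrays, against 0.10, -0.20 and 0.10 on control arrays. On knockout 2 this was below the 1.67 of Thy1. In all, 7 of the 20 genes exceeded the list's mean on all 3 knockout arrays. Some genes of any list lie above its mean, and this count does not compare their excess with that of Thy1. Neural genes were another possible source: of 9 measured enteric glia and neuron genes 2 rose, Tubb3 by 1.08 ± 0.24 and Foxd3 by 1.76 ± 0.46, and 0 fell, with a median fold change of 0.67. That is 22.2% called, beside 14.9% of all genes. Gfap, a filament protein of glia, and Prph, one of neurons, were dark on all arrays. Summed over the 16 neural genes, the signal relative to the 75th percentile was 60.3 to 137.1 on knockout arrays and 36.2 to 81.4 on control arrays. Nearly all of it was Snap25, a protein of synaptic vesicle release that did not pass, and the other 8 measured genes summed to 2.26 to 3.43 on knockout arrays and 1.74 to 1.88 on control arrays. Of the fibroblast list's 4 measured genes 0 passed in limma and 1 (Fbln1) had an unadjusted p under 0.05. Fbln1, a matrix glycoprotein, had -0.91 ± 0.28 (adjusted p = 0.0704). Pcolce, which enhances procollagen processing, had 0.86, the actin-severing protein Gsn 0.93 and Sparc 0.33. Pcolce and Fbln1 each had another, dimmer kept probe that did not enter this fit. On it the difference was 1.76 for Pcolce and -0.95 for Fbln1, and the groups did not overlap for either gene. This Pcolce probe had log2 levels of -0.89, -0.33 and 0.68 on knockout arrays, against -2.32, -2.40 and -1.09 on control arrays. The summed signal of the 20 T cell genes, relative to the 75th percentile, was 83.2 to 227.0 on knockout arrays and 57.4 to 180.4 on control arrays. For the 29 fibroblast genes it was 15.5 to 37.6 on knockout arrays and 15.7 to 28.3 on control arrays. The part of T cells, neural cells or fibroblasts in the Thy1 difference was not tested.

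**Figure D3:**
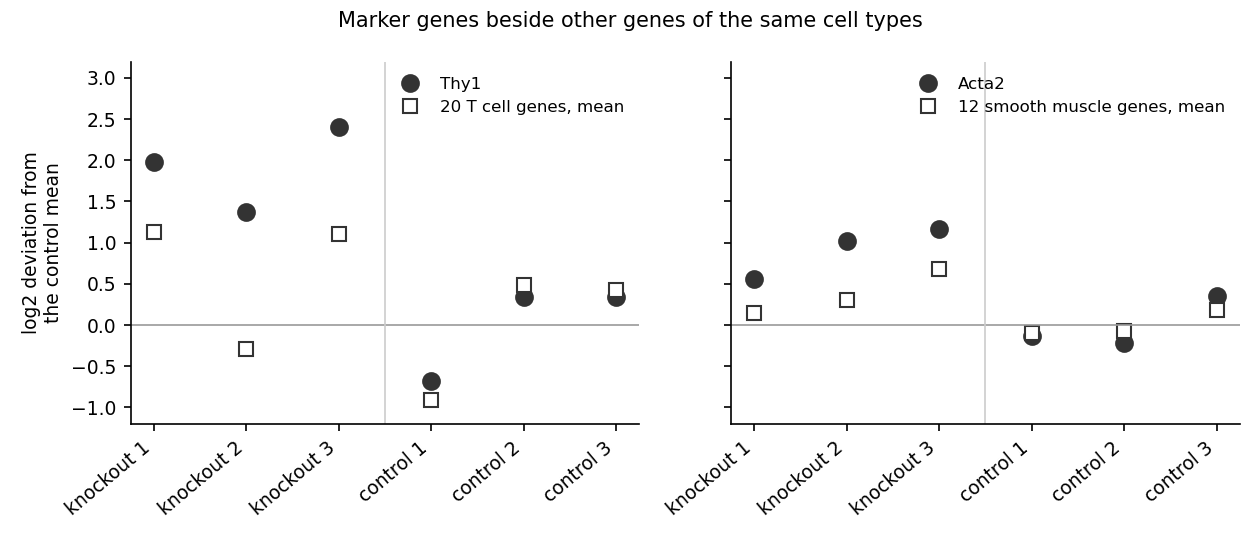
Deviation from the control mean (log2) on each array, for Thy1 (filled circles) beside the mean of 20 T cell genes (open squares, left) and for Acta2 beside the mean of 12 other smooth muscle genes (right), knockout arrays left of control arrays in each panel. On knockout 2 Thy1 stood at 1.38 and the T cell genes at -0.29.

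Vim, the vimentin filament protein of mesenchymal cells and leukocytes, differed between knockout arrays. Its processed signal was 362.9, 134.6 and 252.4 on knockout arrays 1 to 3, against 187.6, 194.1 and 189.4 on control arrays 1 to 3. The control arrays were nearly equal, whereas knockouts 1 and 3 lay above them on the log2 scale and knockout 2 among them. The fold change of Vim was 0.60 ± 0.27 (adjusted p = 0.175), with 0.44 on slide 1 and 0.92 on slide 2. Without knockout 2 it was 0.91 and passed (adjusted p = 0.0403). Knockout 2 also had the lowest mean of the T cell genes among knockout arrays and was the only knockout with a female pattern of Xist and Y-linked genes. The part of either in the Vim values was not tested.

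Acta2, the actin of smooth muscle and myofibroblasts, was bright on 1 of its 3 probes. That probe had a processed signal of 13131, 12851 and 14005 on knockout arrays 1 to 3, against 8218, 7354 and 11317 on control arrays 1 to 3. The groups did not overlap, and control 3 was the nearest to the knockout arrays. Acta2 rose by 0.91 ± 0.24 on this probe, a 1.89-fold difference (adjusted p = 0.0479), with 0.97 on slide 1 and 0.81 on slide 2. The other 2 probes are assigned to the same transcript and were not well above background on any array, so the rise rests on a single probe. Probe sequences were not analysed here, and which actin transcripts the bright probe detects was not tested. The call is at the edge of the threshold: Acta2 did not pass without control 1, 2 or 3 (adjusted p = 0.162, 0.141 and 0.0615), without knockout 2 or 3 (adjusted p = 0.138 and 0.112), or with knockout 2 and control 3 both left out (1.04, adjusted p = 0.173). With sex as a block the fold change was 0.98 (adjusted p = 0.0747). Scaled to the array median, which moves the median of all genes to -0.26, the fold change of Acta2 was 0.67 (adjusted p = 0.118).

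The sequence just before the start of Acta2 is shown because its CArG boxes, the binding motif of serum response factor, are the classic control element of smooth muscle genes, and that of Des, a member that was dark, is shown beside it for comparison, a pair picked with their values known. Each line gives the 250 bases before the RefSeq start on GRCm38.p6, 5′ to 3′ on the gene's strand, and capitals mark a CArG box with at most 1 G or C in its A and T core, on either strand.
Acta2, chr19:34255374-34255623, minus strand: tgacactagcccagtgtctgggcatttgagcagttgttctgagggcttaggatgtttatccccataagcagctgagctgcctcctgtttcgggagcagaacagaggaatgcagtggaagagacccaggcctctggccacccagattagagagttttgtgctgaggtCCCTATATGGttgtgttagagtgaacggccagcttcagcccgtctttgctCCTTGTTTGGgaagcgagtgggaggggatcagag
Des, chr1:75360042-75360291, plus strand: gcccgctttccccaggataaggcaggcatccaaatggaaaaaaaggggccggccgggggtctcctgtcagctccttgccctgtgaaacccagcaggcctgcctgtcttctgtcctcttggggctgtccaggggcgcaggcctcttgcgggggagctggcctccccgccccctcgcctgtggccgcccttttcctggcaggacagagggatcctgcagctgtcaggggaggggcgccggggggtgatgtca
The Acta2 window holds 2 boxes, with first bases at -84 and -34 relative to the start, and the Des window holds 0. Of 27025 genes with such a window 9.78% held at least 1 box and 0.759% held at least 2. RefSeq windows were at hand for 4 members (Vim, Pdgfra, Acta2 and Des), of which only Acta2 had a box, and for 22 of 26 smooth muscle genes, of which 3 (Acta2, Myl9 and Synm) had one. No window was at hand for Tagln, Actg2, Myh11 and Myocd, of which Tagln and Actg2 were well above background on every array. Of the genes with a box, Acta2 was bright, and Myl9 and Synm were too dim to be tested. Ckb, Mylk and Tpm1, all well above background on every array, had 0 boxes. Whether boxes and brightness go together was not tested. A match is a run of letters and says nothing about binding in these crypts.

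The other smooth muscle genes had a smaller median fold change than Acta2. Of 12 measured genes 2 rose and 0 fell (16.7% called, near the 14.9% of all genes), 10 had a positive fold change, and the median was 0.29. Ckb, the brain-type creatine kinase that epithelia also contain, rose by 1.24 ± 0.32 (adjusted p = 0.0462), and Cald1, the actin-binding caldesmon, by 1.15 ± 0.30 (adjusted p = 0.0483) on its brightest probe. Among the 10 that did not pass were Actg2, the enteric smooth muscle actin, at 0.54 (adjusted p = 0.272), Mylk, the myosin light chain kinase, at 0.60 (adjusted p = 0.191), Tpm1 at 0.37 (adjusted p = 0.183) and Tagln, which binds actin, at -0.07 (adjusted p = 0.896). The list's mean deviation was 0.14, 0.30 and 0.68 on knockout arrays 1 to 3, against -0.10, -0.08 and 0.18 on control arrays 1 to 3, and Acta2 deviated by 0.56, 1.03 and 1.16 on knockout arrays, against -0.14, -0.21 and 0.35 on control arrays. In the summed signal of the 23 genes, relative to the 75th percentile, knockout arrays spanned 154.7 to 251.6 and control arrays 91.8 to 147.5. Much of this came from Ckb: the other 11 measured genes summed to 66.8 to 101.1 on knockout arrays and 54.5 to 73.9 on control arrays, and the groups overlapped. Their part in the Acta2 difference was not tested.

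**Figure D4:**
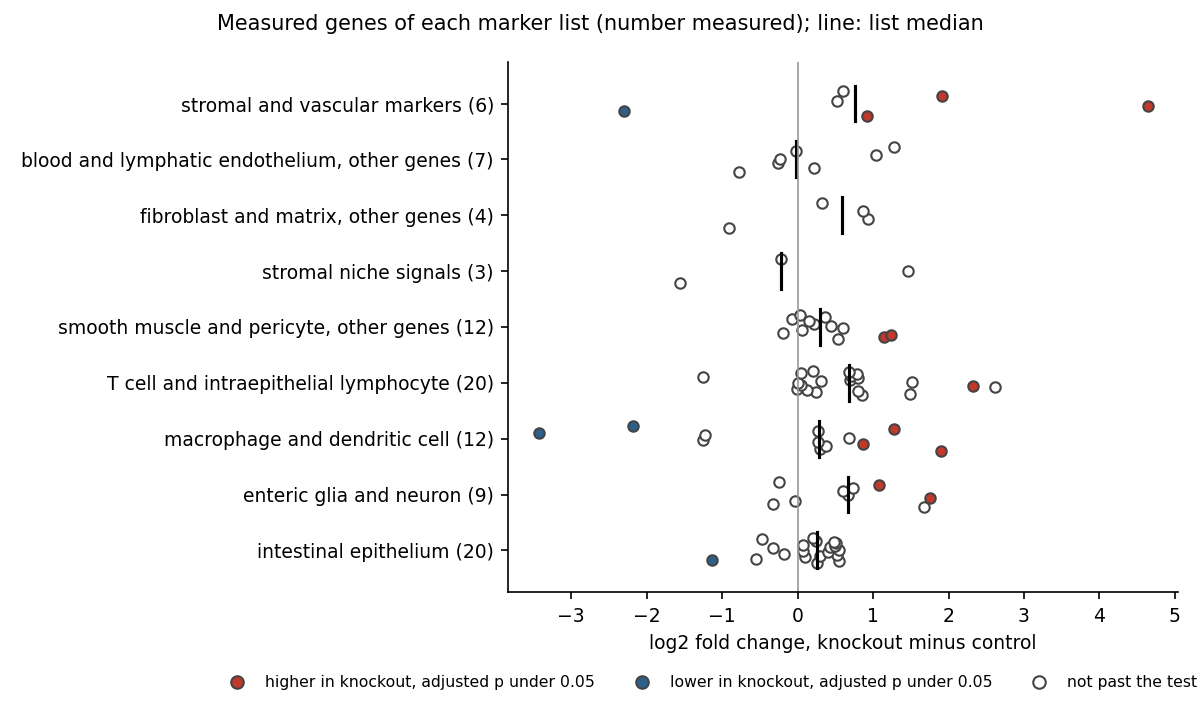
Log2 fold change, knockout minus control, of each measured gene of the stromal and vascular markers and of 8 other marker lists, with the number measured in brackets and a line at the median; red genes passed as higher, blue genes as lower, open ones did not pass. Lyve1 lies alone at 4.64, and 0 of the 7 other endothelial and 0 of the 4 other fibroblast genes are coloured.

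Read as a gauge of non-epithelial content per array, the members gave an answer that depended on which of them were counted. The mean deviation of the 6 measured genes from the control mean was 1.15, 0.902 and 1.098 on knockout arrays 1 to 3, against -0.14, 0.00 and 0.15 on control arrays 1 to 3. Without Lyve1 it was 0.42, 0.01 and 0.56 on knockout arrays, against -0.20, 0.09 and 0.11 on control arrays, and the groups overlapped. Without Lyve1 and Thy1 it was 0.04, -0.33 and 0.10 on knockout arrays, against -0.08, 0.03 and 0.05 on control arrays, and the groups overlapped again. With Esam left out as well, which leaves Pecam1, Vim and Acta2, it was 0.49, 0.51 and 1.05 on knockout arrays, against -0.08, 0.03 and 0.04 on control arrays. In this last case the groups did not overlap, as for 39.7% of all genes taken singly. The genes to leave out were picked with their values known, so this separation is no separate support. Pecam1 and Vim each overlapped when taken alone. The means that include Esam count its knockout values as measured, though none of them was well above background. The summed signal of the 10 genes, most of it from the bright Acta2 probe, was 58.2 to 80.0 on knockout arrays and 28.1 to 40.9 on control arrays, relative to the 75th percentile.

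Genes whose pattern over the 6 arrays was closest to a member's were found by the root mean square difference of values centred on each gene's mean, among 12617 genes. Lyve1 was nearest to Epop, which binds elongin and Polycomb proteins (0.44 on the log2 scale), and to Teddm3 (0.48). Esam was nearest to Fam171a1 and to the polarity gene Pard6g (0.21 each), Thy1 to the protease inhibitor Serpine2 (0.19) and to Epb41l4a (0.21). Acta2 lay closest to the glycolytic enzyme Pkm (0.022) and to Khnyn (0.048). Vim was closest to Hmgcs1, of cholesterol synthesis (0.12), and to the glycogen synthase Gys1 (0.14), and Pecam1 to Skil (0.064) and Abcc6 (0.078). None of these 12 genes was in the marker lists.

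**Figure D5:**
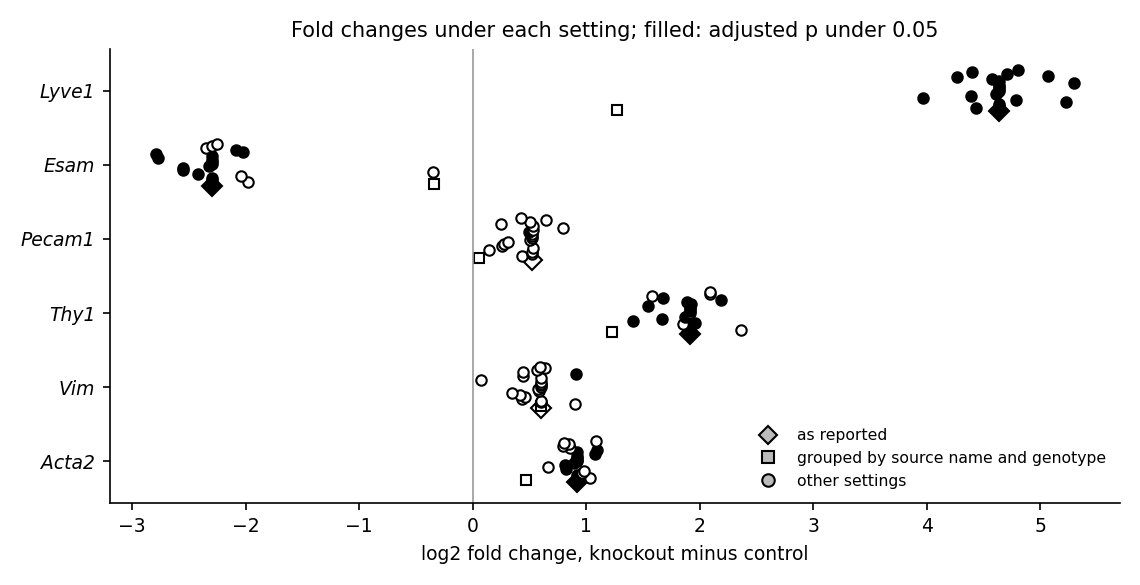
Log2 fold change, knockout minus control, of each measured member as reported (diamond), with samples grouped by source name and genotype (square) and under every other setting (circles); filled symbols have an adjusted p under 0.05. Lyve1 passed under each setting except the grouping by source name and genotype, and no member changed sign.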

How the data were processed

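Expression was measured in 6 samples, 3 knockout and 3 control, on Agilent one-colour arrays. The deposited spot intensity comes from Agilent Feature Extraction, whose version the file headers give as 12.0.3.1, whereas the submitters' processing notes give 11.5.1.1. The processed intensity had its background subtracted within each array and was not scaled between arrays, per the file headers, and the flags for signal well above background are other values of the same software. The series table deposited by the authors is in log2 units, and its values matched the scanner values scaled to the 75th percentile and centred on each probe's median, with column medians of -0.07, 0.21 and -0.18 for knockouts 1 to 3 and 0.20, 0.06 and -0.32 for controls 1 to 3. This table was tried as an alternative source.

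In the scanner data, control and outlier spots were left out, spots of a probe averaged, and the log2 processed signal minus the array's 75th percentile taken. No spot was saturated (0 spots). Of 56605 probes, 33767 received a symbol through the unversioned accession and a RefSeq table of GRCm38.p6, used for names only since the array's annotation is on mm9. A probe was kept if 3 or more of the 6 arrays had it well above background, and the brightest kept probe stood for a gene. The fit used limma 3.58.1 in R 4.3.3 and had no term other than group. Its p-values were two-sided, with Benjamini-Hochberg adjustment over 13499 genes and calls at an adjusted p under 0.05. Where a whole group was dark, the ratio given divides the bright group's mean by the dim group's. Each dim array counts there at its lowest signal well above background, or at the probe's own if that is higher. This ratio has no error attached and is not a strict bound. Normexp, an alternative, ran on median spot signals. The number of arrays limits the precision.

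The members and the lists were chosen, and the CArG motif added, with earlier results of these data known. Named genes are all 10 members, Arid1a, up to 4 genes with the smallest p and those that passed from each list, and the 2 genes nearest to each member by pattern. Named outside this rule, after their values were seen, were genes not well above background, the lymphatic subset, Tek, Egfl7, Tie1, Itgam, Cd3e, Cd3g, Snap25, Actg2 and Tagln, and Epcam and Cdh1 as examples of a list. The sources state no pairing, so the numbers were not taken to pair samples. Same-numbered samples correlated at 0.25, 0.08 and 0.35 in their deviations from the group means, and differently numbered ones at -0.28 to 0.02. The samples numbered 3 also shared slide 2, so pairing and slide cannot be told apart for them.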

Additional observations from a re-analysis of the deposited data

How the results depend on the processing

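Over 22 other settings the fold changes of the 6 measured members were recomputed 130 times: 102 kept direction and side of the threshold, 26 lost the call, 2 gained one and 0 turned. The losses fell on Acta2, Esam and Thy1, and on Lyve1 only with the groups by source name and genotype, where its fold change was 1.27. Under that grouping limma called 0 of 13499 genes (207 had an unadjusted p under 0.05) and 0 members, with 0 at an unadjusted p under 0.05. Where 2010 genes and 4 members passed as reported, 320 genes and 1 member passed without knockout 2 and control 3, whose labels contradict each other, 689 and 1 on slide 1 alone, 697 and 2 without a filter on dim probes, which tested 23462 genes, 1339 and 3 with sex (read from Xist and Y-linked probes) as a block, where Acta2 was lost, and 7095 and 5 with array quality weights, Pecam1 being the fifth. Leaving out each array in turn gave 638 to 4022 genes and 1 to 4 members, the lowest without control 1 and the highest without knockout 1. With the replicate number as a block 2732 genes and the same 4 members passed, and with slide as a block 2498 and the same 4. Every sample correlated best with its own number, a hint from the data only. Under array median scaling 28.7% of the calls were higher in knockout crypts, against 48.9% as reported. Over all settings the adjusted p ranged from 0.000119 to 0.999 for Lyve1, 0.000303 to 0.999 for Esam, 0.00693 to 0.999 for Thy1, 0.00206 to 0.999 for Acta2, 0.0461 to 0.999 for Pecam1 and 0.0403 to 0.999 for Vim, the highest each time under the grouping by source name and genotype. The cause of these changes was not tested. Signal over background limits the dim members: the lowest signal counted as well above background was 5.04 to 28.6 across arrays, where Pecam1 had 21.2 to 36.5 and Esam 4.87 to 52.7, and nothing can be said of Cdh5, Pdgfra, Myh11 and Des.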
